A study of Mus musculus with 12 samples.

Results

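Scavenger and mannose receptors, together with the folate receptor gene Folr2, were examined in tumour-associated macrophages (TAMs). The set holds 10 genes: Mrc1, Folr2, Cd163, Msr1, Marco, Cd36, Stab1, Clec7a, Lyve1 and Mertk. They were chosen by name from knowledge of receptors with which macrophages take up or bind ligands, with earlier results of these data known. All 10 were among the 24781 genes of the expression table, 9 had at least 1 molecule in a library, and 7 passed the filter for testing. The mice were wild type (WT), carried tumours of MC38, a mouse colon adenocarcinoma line, and received either picrotoxin, an antagonist of GABA type A receptors, or the solvent DMSO, by intraperitoneal injection from the day before tumour inoculation and every other day thereafter. On day 7, CD45+CD11b+F4/80high cells were sorted from the tumour, and each library was made from 100 such cells. There were 6 DMSO libraries and 6 picrotoxin libraries, and each n given below counts libraries, not animals. The paper's methods state that every library came from its own mouse, but its figure legend reports a smaller number of independent mice. Libraries were treated as independent, and p-values may therefore be too small. The comparison asks whether the blockade of GABA type A receptors in the mouse alters RNA levels in these cells. The drug was given to the whole animal, so the comparison is between treated hosts and does not separate an action on macrophages from an action on other cells.

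These receptors give a macrophage its capacity for clearance. Scavenger receptors bind modified lipoproteins, polyanions, dying cells and microbes, mannose and glucan receptors bind sugars through lectin domains, and most deliver their ligand to endosomes or phagosomes. Several of them, above all CD206 (the product of Mrc1), are used in tumours as markers of macrophages with a wound-healing or alternatively activated phenotype, whereas FOLR2, LYVE1, CD163 and TIMD4 are markers of tissue-resident macrophages that lie near vessels. The genes differ in their control and in their ligands, and their levels need not move together.

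Library totals ran from 201697 to 309617 molecules, each molecule being a distinct molecular barcode, and 9846 to 10866 genes were detected per library. At this depth a count of 0 allowed a share of up to 0.000969% to 0.00149% of molecules in a library, counting error only. The sorted cells carried macrophage RNA, since all 9 macrophage markers, among them Adgre1 (which encodes F4/80), Itgam (CD11b), Csf1r and the C1q genes, had molecules and summed to a share of 1.0% ± 0.14 (SD, n = 6) for DMSO and of 1.05% ± 0.064 (SD, n = 6) for picrotoxin (exact permutation test, two-sided, p = 0.522). All 6 monocyte markers were present too, with 216 to 363 molecules per library in DMSO and 246 to 376 in picrotoxin, most of them of Ccr2. Of 10 endothelial and lymphatic markers, which matter for Lyve1 and Stab1, Tek and Prox1 had no molecule and the others summed to 4 to 8 molecules per DMSO library and 1 to 13 per picrotoxin library. All 5 adipocyte markers, which matter for Cd36, were at 0 in every library. The 12 fibroblast and matrix markers had 14 to 720 molecules in DMSO and 8 to 47 in picrotoxin libraries (exact permutation p = 0.152), and the highest sums, 720 and 193, were those of DMSO libraries 5 and 3.

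Together the 10 genes made up 0.181% ± 0.0244 (SD, n = 6) of the RNA molecules counted with DMSO and 0.208% ± 0.0298 (SD, n = 6) with picrotoxin, with ranges of 0.143% to 0.215% and 0.162% to 0.251% that overlapped. Mrc1, Msr1 and Clec7a alone held 81.9% of these molecules in DMSO and 85.0% in picrotoxin. To compare genes with each other, molecules were expressed as CPM (scaled to the library total) per kilobase of the longest annotated transcript. On that scale and over all 12 libraries, Clec7a stood at 257 ± 64.0 (SD), Msr1 at 195 ± 29.5 and Mrc1 at 61.5 ± 20.0. Folr2 at 26.1 ± 9.92, Stab1 at 21.1 ± 3.21, Cd36 at 18.9 ± 6.57 and Mertk at 12.1 ± 5.74 formed a lower tier. Lyve1 at 1.22 and Cd163 at 0.121 were near the limit of detection, and Marco was at 0.

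The step from Msr1 to Mrc1, the step from Mrc1 to Folr2 and the step from Mertk to Lyve1 held in 12 of 12 libraries. Clec7a exceeded Msr1 in 11 of 12 libraries although their ranges of mean ± SD overlapped. Neighbours within the lower tier did not differ beyond their spread, since Folr2 exceeded Stab1 in 8 libraries, Stab1 exceeded Cd36 in 9 and Cd36 exceeded Mertk in 8. The order was the same when the summed length of all exons was used, which also scales by length. By mean CPM without length scaling it differed. Msr1 at 709 then lay above Clec7a at 585, and Folr2 at 31.5 lay below Stab1 (168), Cd36 (64.4) and Mertk (52.0). RNA was fragmented by heat and copied with an oligo-dT primer, so the number of molecules may not scale with transcript length. The order per kilobase rests on the assumption that it does.

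**Figure D1:**
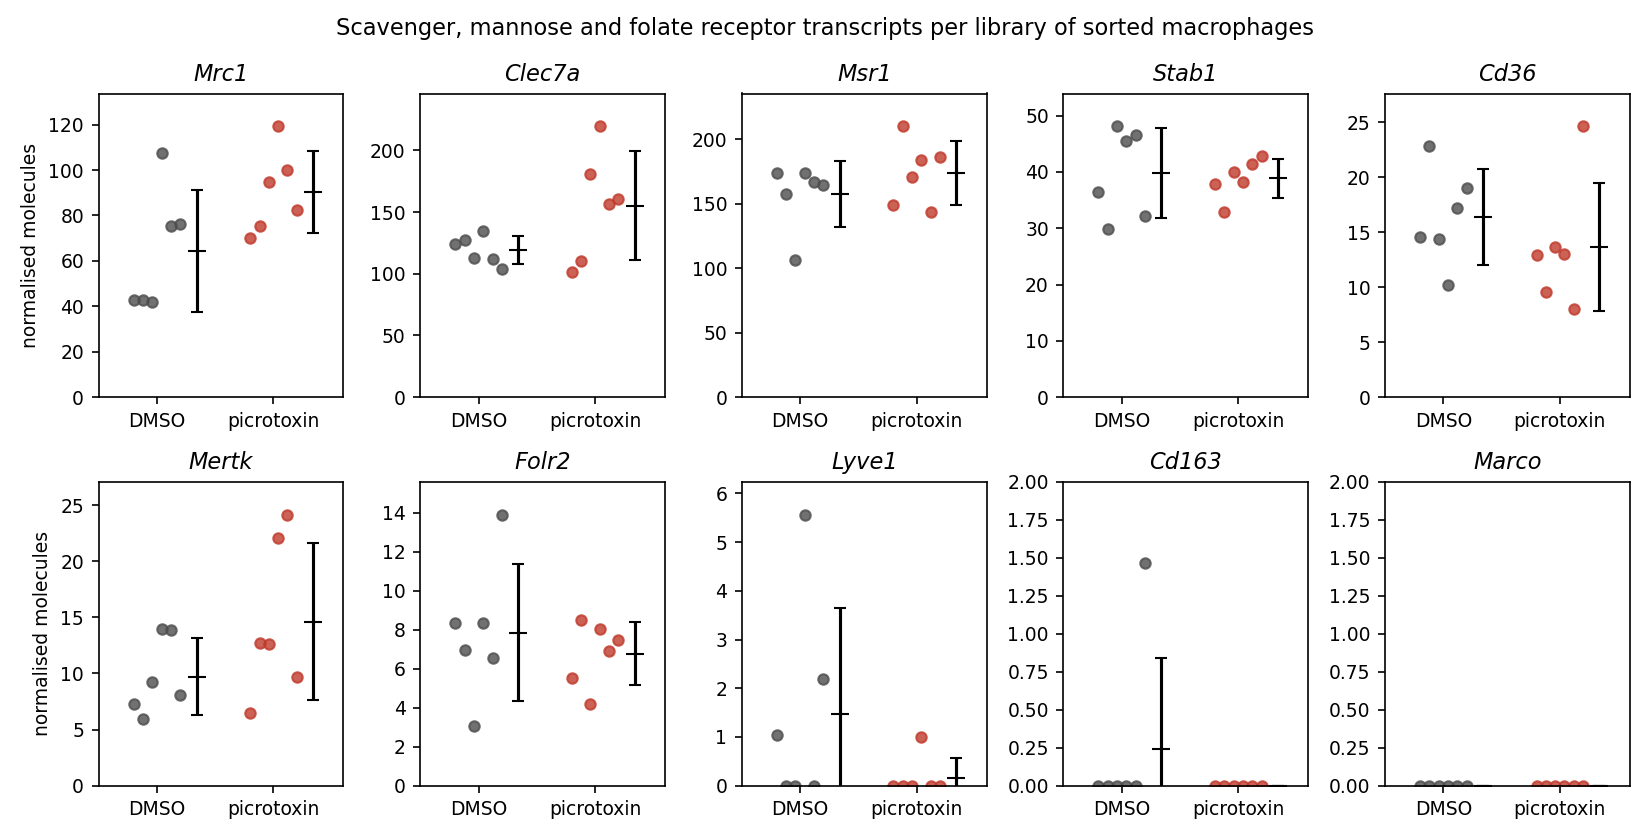
Normalised molecules (molecules divided by the size factor of the library, vertical axis) of each of the 10 genes in 6 DMSO and 6 picrotoxin libraries, with 1 point per library and the mean ± SD of each group. For Mrc1 all picrotoxin libraries lie at 70.0 or above while DMSO libraries run from 42.0 to 107.6, and Lyve1, Cd163 and Marco lie at or near 0.

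No receptor passed a 0.05 threshold after adjustment. In the quasi-likelihood test of edgeR with Benjamini-Hochberg adjustment over 9580 genes, 0 of 7 tested receptors had an adjusted p under 0.05, against 0.0522% of all tested genes (5 genes). DESeq2 and limma-voom also gave 0, as did edgeR without DMSO libraries 3 and 5, which had the highest sums of matrix markers. With other samples, filters or covariates 1 receptor was called in edgeR. It was Clec7a in libraries numbered 3 to 6 alone, a split taken from these same data (adjusted p = 0.00484). With no filter on low counts it was Mrc1 (adjusted p = 0.0435). With the library number as a block (the replicate block) it was also Mrc1 (adjusted p = 0.0442), where 43 of all tested genes were called. At an unadjusted p under 0.05, 2 of 7 were called in edgeR, against 7.77% of all tested genes, and both were higher in picrotoxin, against 3.65% of all tested genes in that direction. The same 2 genes, Mrc1 and Clec7a, were called by the two-sided Wald test of DESeq2 at an unadjusted p under 0.05, the rule used by the study, against 3.82% of all tested genes. In 0 of 7 receptors did all libraries of one group lie above all of the other, against 0.386% of all tested genes. The libraries hold 100 cells each, and a difference in a summed level cannot be told apart from a difference in the number of cells that carry the receptor.

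**Figure D2:**
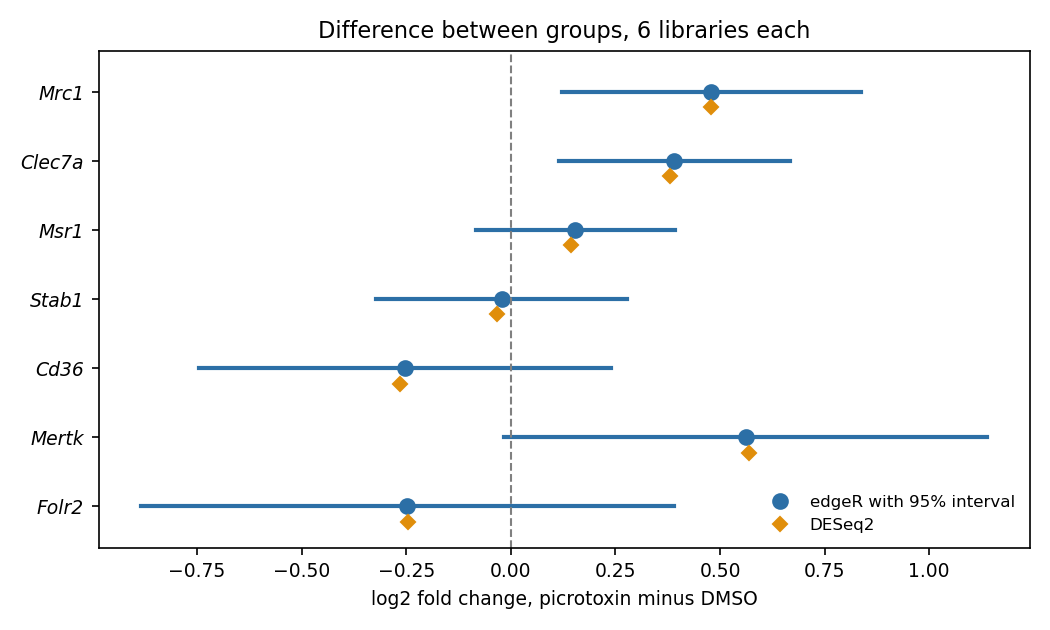
Log2 fold change of the 7 tested receptors, picrotoxin minus DMSO (horizontal axis), with circles and bars for the edgeR estimate and its 95% interval and diamonds for DESeq2. The intervals of Mrc1 (0.12 to 0.84) and Clec7a (0.11 to 0.67) lie above 0, and the other 5 intervals include 0.

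Among the lectin receptors, Mrc1 encodes the mannose receptor CD206, an endocytic receptor for mannosylated glycoproteins and collagen fragments, and lies at chr2:14229392-14332057 on the plus strand (GRCm38, the assembly also called mm10), with 30 exons in its longest transcript. Its normalised number of molecules in DMSO libraries was 42.0 at the lowest, 59.0 at the median and 107.6 at the highest. In picrotoxin libraries it was 70.0, 88.6 and 119.4. DMSO libraries 1, 2 and 3 were low, at 42.7, 42.7 and 42.0, DMSO library 4 was as high as the upper picrotoxin libraries, and the groups overlapped, although all 6 picrotoxin libraries were above the DMSO mean. The means were 64.4 ± 26.7 and 90.3 ± 18.2 (SD, n = 6 each), and edgeR estimated a log2 fold change of 0.48 (standard error, SE, 0.18; unadjusted p = 0.010; adjusted p = 0.428). In DESeq2 the unadjusted p was 0.0233. With the library number as a block in edgeR, the log2 fold change was 0.52 and the adjusted p was 0.0442. Over the 12 fits that leave out a single library, the log2 fold change ran from 0.38 to 0.67 and the unadjusted p from 0.000302 to 0.0421. The coefficient of variation of Mrc1 in DMSO libraries, 41.5%, was well above the 11.7% that counting alone would give.

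Clec7a encodes dectin-1, a lectin receptor for fungal beta-glucans that signals through the kinase Syk and the adaptor Card9. It lies at chr6:129461591-129472779 on the minus strand, and the annotation used here (GENCODE M21) classes it as a polymorphic pseudogene, a class for genes that are intact in some strains only. Normalised molecules in DMSO libraries were 104.0 at the lowest, 118.2 at the median and 134.5 at the highest, and in picrotoxin libraries 101.4, 158.6 and 219.7. Picrotoxin libraries 3 to 6 lay above every DMSO library, whereas picrotoxin libraries 1 and 2 lay below the DMSO mean. The means were 119 ± 11.3 and 155 ± 44.2 (SD, n = 6 each). The log2 fold change was 0.39 in edgeR (SE 0.14; unadjusted p = 0.00702; adjusted p = 0.408), and the unadjusted p was 0.0154 in DESeq2. Without picrotoxin library 4, the highest, the log2 fold change was 0.27 and the unadjusted p was 0.0512. That library also had the most molecules of monocyte markers of all 12, at 376, and the highest Mrc1. Most molecules of that marker list were of Ccr2, 1373 of 1740 in DMSO and 1412 of 1692 in picrotoxin libraries. The part of monocyte content in either result was not tested.

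Libraries numbered 1 and 2 had stood apart from those numbered 3 to 6 in earlier results of these data, although the labels name no batch, and the treatment difference was therefore computed within each. The split was thus taken from these same data, and the test of the difference between the 2 effects was added after seeing them. The p-values for this split are descriptive and give no independent support. For Clec7a the log2 fold change was -0.25 (SE 0.18) in numbers 1 and 2, where DMSO held 123.8 and 127.1 and picrotoxin held 101.4 and 110.4 normalised molecules. It was 0.65 (SE 0.12) in numbers 3 to 6, where DMSO libraries ran from 104.0 to 134.5 and picrotoxin libraries from 156.4 to 219.7. The groups did not overlap in either set of numbers, but the order was opposite. With 2 libraries per group in numbers 1 and 2, 34.5% of all tested genes did not overlap, against 3 of 7 receptors (Mrc1, Cd36 and Clec7a), so that a lack of overlap there is common. In numbers 3 to 6 it was 4.74% of all tested genes, and 1 of 7 receptors (Clec7a). The difference between these 2 effects was 0.90 (SE 0.21), with edgeR p-values of 0.000134 unadjusted and 0.108 adjusted, so it did not pass adjustment. Of the 7 receptors, 1 (Clec7a) had an unadjusted p under 0.05 for that difference, against 5.79% of all tested genes, of which 0 passed adjustment.

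In libraries 3 to 6 taken alone, Clec7a had an adjusted p of 0.00484 in edgeR, with 4 libraries per group, and was the 1 receptor of 7 called there, against 0.511% of all tested genes. Mrc1 was higher in picrotoxin in both sets of numbers, by 0.76 (SE 0.26) in 1 and 2 and by 0.41 (SE 0.16) in 3 to 6 on the log2 scale, and the difference between them had an unadjusted p of 0.258. In numbers 1 and 2, Mrc1 was 42.7 in both DMSO libraries and 70.0 and 75.4 in the picrotoxin libraries, whereas in numbers 3 to 6 the groups overlapped. Cd36 differed by -0.72 (SE 0.42) and -0.03 (SE 0.29) in the same order, where the difference had an unadjusted edgeR p of 0.181, and the 4 others had p-values for the difference between 0.615 and 0.858.

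**Figure D3:**
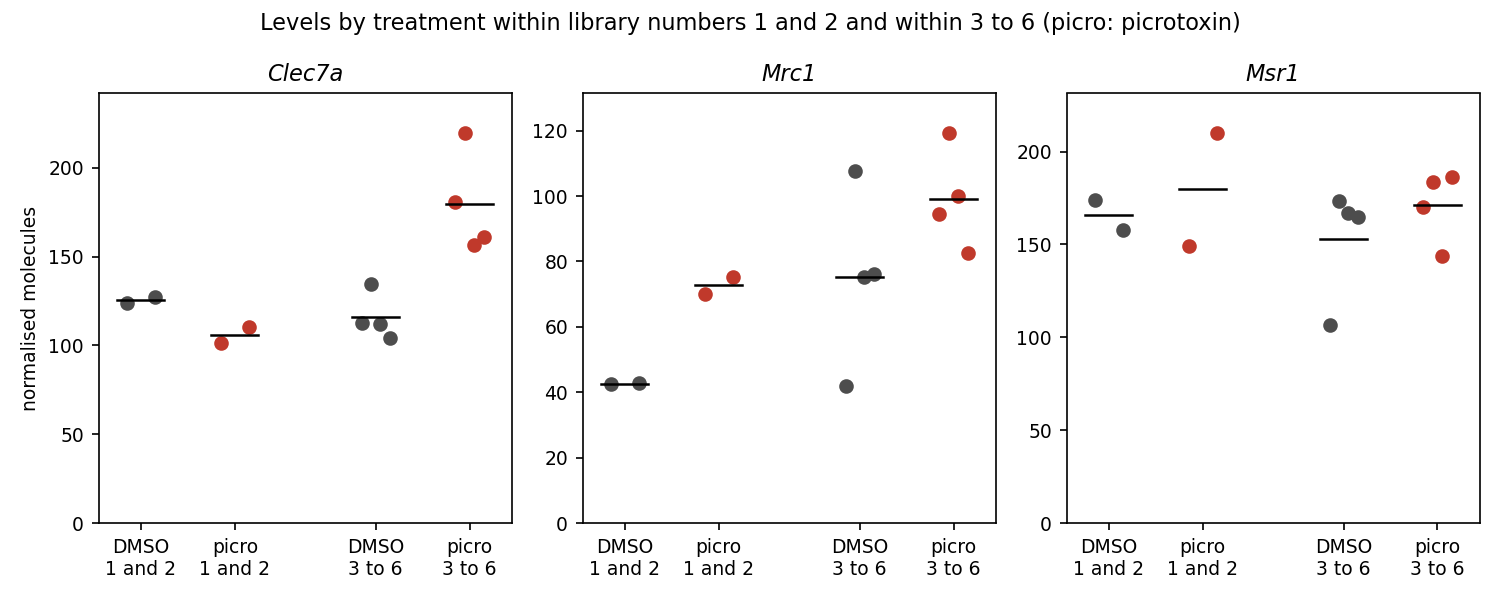
Normalised molecules (vertical axis) of Clec7a, Mrc1 and Msr1 in DMSO and picrotoxin libraries, shown separately for library numbers 1 and 2 and for numbers 3 to 6, with 1 point per library and a line at the mean. For Clec7a the picrotoxin libraries lie below the DMSO libraries in numbers 1 and 2 (101.4 and 110.4 against 123.8 and 127.1) and above them in numbers 3 to 6 (156.4 or more against at most 134.5).

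Of the class A scavenger receptors, Msr1 encodes SR-A1, a trimeric receptor with a collagen-like stalk that binds modified low-density lipoprotein and polyanions, and lies at chr8:39581685-39642673 on the minus strand. Normalised molecules were 106.5 at the lowest, 165.8 at the median and 173.8 at the highest in DMSO and 143.8, 177.0 and 210.2 in picrotoxin. The groups overlapped throughout, and the lowest value was that of DMSO library 3, which also had the lowest sum of macrophage markers, 1837 molecules against 2036 or more in the others. The means were 157.2 ± 25.5 and 173.9 ± 24.9 (SD, n = 6 each), with a log2 fold change of 0.15 and a 95% interval of -0.08 to 0.39 (edgeR, unadjusted p = 0.196). Marco, the class A receptor for bacteria and particles, had 0 molecules among 2888365, which allows a share of up to 0.000104%.

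Cd36 encodes the class B scavenger receptor for oxidised low-density lipoprotein and long-chain fatty acids and lies at chr5:17781690-17888801 on the minus strand. In DMSO libraries it stood at 10.2, 15.9 and 22.8 normalised molecules (lowest, median and highest), and in picrotoxin libraries at 8.1, 13 and 24.6. A single picrotoxin library, number 6, held the highest value of all 12, and the other 5 were below the DMSO mean. The means were 16.4 ± 4.36 and 13.6 ± 5.83 (SD, n = 6 each), with a log2 fold change of -0.25 and an interval of -0.75 to 0.24 (edgeR, unadjusted p = 0.302). Without picrotoxin library 6 the log2 fold change was -0.50 with an unadjusted p of 0.0476. Counting alone would give a coefficient of variation of 23.5% in DMSO, close to the 26.6% measured. In picrotoxin it would give 27.6%, below the 42.7% measured.

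Stab1, which encodes stabilin-1, a large endocytic receptor of macrophages and sinusoidal endothelium that clears acetylated low-density lipoprotein and the matrix protein SPARC, had nearly the same mean in both groups, 39.8 ± 7.96 normalised molecules in DMSO and 38.8 ± 3.48 in picrotoxin (SD, n = 6 each). It lies at chr14:31139013-31168641 on the minus strand with 69 exons in its longest transcript, and 112 bases of that transcript are shared with Nt5dc2 on the opposite strand, so a few molecules could be counted for either gene if the counting ignored strand. DMSO libraries held 29.8, 40.9 and 48.1 normalised molecules (lowest, median and highest) and picrotoxin libraries held 32.9, 39.0 and 42.9. The picrotoxin range lay inside the DMSO range. The log2 fold change was -0.02, with an interval of -0.32 to 0.28 (edgeR, unadjusted p = 0.886), and its sign changed when 1 of several libraries was left out. In picrotoxin the coefficient of variation, 8.97%, was below the 16.4% of counting noise.

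Cd163, which encodes the receptor for haemoglobin bound to haptoglobin, had 2 molecules, both in DMSO library 6, and no fold is given. Lyve1 encodes a hyaluronan receptor of lymphatic endothelium and of macrophages along vessels. It had 10 molecules in DMSO and 1 in picrotoxin, with 6 in DMSO library 4, 3 in DMSO library 6, 1 in DMSO library 1 and 1 in picrotoxin library 4. The ratio of DMSO to picrotoxin was 9.01, with a 95% counting interval from 1.28 to 391, and the exact two-sided permutation test over libraries gave p = 0.182. In DMSO library 4, which held most of the Lyve1 molecules, the endothelial and lymphatic markers summed to 4 molecules, against 5 to 8 in the other DMSO libraries. These sums are too small to differ beyond counting noise, and the source of the Lyve1 molecules was not tested.

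Mertk encodes a receptor tyrosine kinase that binds apoptotic cells through the bridging proteins Gas6 and protein S, and lies at chr2:128698956-128802894 on the plus strand. DMSO libraries held 6.0, 8.6 and 13.9 normalised molecules (lowest, median and highest) and picrotoxin libraries held 6.5, 12.7 and 24.2. Picrotoxin libraries 4 and 5, at 22.1 and 24.2, were above every DMSO library, and the other 4 lay within the DMSO range. The means were 9.72 ± 3.41 and 14.6 ± 7.01 (SD, n = 6 each), with a log2 fold change of 0.56 (SE 0.28), an interval of -0.02 to 1.14, and p-values in edgeR of 0.0567 unadjusted and 0.670 adjusted. This was the largest estimated difference of the 7, and also a count of only 65 molecules in DMSO and 83 in picrotoxin.

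Folr2, which encodes the folate receptor beta, a lipid-anchored receptor that takes up folates, lies at chr7:101839988-101857194 on the minus strand. It overlaps Gm10602, which shares 479 bases with it on the opposite strand, so that its count is uncertain if strand was ignored. DMSO libraries held 3.1, 7.6 and 13.9 normalised molecules (lowest, median and highest) and picrotoxin libraries 4.2, 7.2 and 8.5. All picrotoxin libraries lay inside the DMSO range, and DMSO library 6 was the single high value. The log2 fold change was -0.25 with an interval of -0.88 to 0.39 (edgeR, unadjusted p = 0.434), and it was 0.03 without DMSO library 6. With 54 and 39 molecules in all, counting would give coefficients of variation of 33.3% and 39.2%, against 45% and 24% measured.

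Relations between receptors were computed over the 12 libraries after removal of the group means, as Pearson correlations of log2 CPM. Of 21 pairs, 15 were positive, r ran from -0.56 to 0.71, and 0 passed adjustment over the 21 pairs. Folr2 and Msr1 had r = 0.71 (permutation p = 0.0114, adjusted p = 0.151) and rho = 0.74 (permutation p = 0.0081). The Pearson value was 0.54 without the 2 libraries farthest from the median of Folr2, whatever their Msr1, and 0.70 within numbers 3 to 6. Mrc1 and Mertk had r = 0.69 (permutation p = 0.0144, adjusted p = 0.151) and rho = 0.57 (permutation p = 0.0556). Their r was 0.74 without the 2 libraries farthest from the median of Mrc1, whatever their Mertk, and 0.52 within numbers 3 to 6. In that pair the libraries with high Mrc1 also had high Mertk in both treatment groups, with r = 0.76 in DMSO and 0.86 in picrotoxin. Cd36 and Mertk had the lowest value, r = -0.56 (permutation p = 0.0587). The libraries share depth and cell content, which such correlations include.

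**Figure D4:**
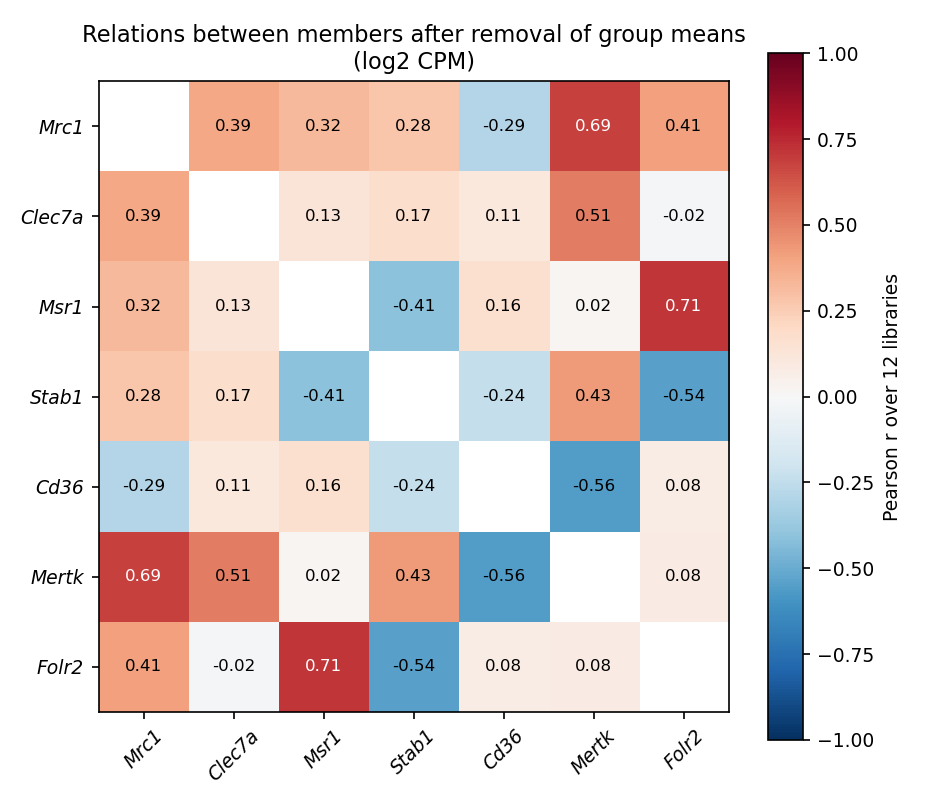
Pearson r between each pair of the 7 tested receptors over 12 libraries, computed on log2 CPM after removal of the group means and coloured from -1 (blue) to 1 (red). The strongest positive cells are Folr2 with Msr1 (0.71) and Mrc1 with Mertk (0.69), and the strongest negative cell is Cd36 with Mertk (-0.56).

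Among 3740 genes with a mean of at least 10 normalised molecules, the 3 whose log2 level was most like that of Mrc1 over the 12 libraries, group means kept, were B4galt1 (r = 0.90), Cxcr4 (0.88) and Rnase4 (0.88). For Clec7a they were Cln3 (0.91), Fam105a (0.90) and Akap9 (0.87), and for Msr1 Hcfc1r1 (0.92), Akap13 (0.91) and Rps25 (0.89). Stab1 was most like Top1 (0.92), Dpy30 (0.87) and Rab3il1 (0.80), Mertk most like Bod1l (0.90), Cast (0.88) and Gspt1 (0.85), and Cd36 most like Rps16 (0.87), Hprt (0.82) and Spata13 (0.80). These are the highest of 3740 values for each receptor, each from 12 points, and are a description. No other receptor of the set was among them.

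Promoter sequences of RefSeq (GRCm38.p6, 300 bases around the transcription start) matched 8 of the 10 receptors, with 2 entries each for Clec7a and Folr2. The 3 promoters below belong to the receptors with the lowest unadjusted p-values, printed 5′ to 3′ on the strand of the gene, with capitals for each match to AGGAAG, the core of the site of PU.1, on either strand (CTTCCT on the strand shown). PU.1 is the transcription factor on which macrophage identity depends.
Mrc1, chr2:14229164-14229463, plus strand: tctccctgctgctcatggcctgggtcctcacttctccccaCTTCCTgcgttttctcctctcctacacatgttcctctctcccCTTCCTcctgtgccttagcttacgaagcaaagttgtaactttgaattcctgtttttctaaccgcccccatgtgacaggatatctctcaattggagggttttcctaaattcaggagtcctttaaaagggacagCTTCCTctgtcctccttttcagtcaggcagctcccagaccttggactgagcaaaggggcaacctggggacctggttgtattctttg
Clec7a, chr6:129472730-129473029, minus strand: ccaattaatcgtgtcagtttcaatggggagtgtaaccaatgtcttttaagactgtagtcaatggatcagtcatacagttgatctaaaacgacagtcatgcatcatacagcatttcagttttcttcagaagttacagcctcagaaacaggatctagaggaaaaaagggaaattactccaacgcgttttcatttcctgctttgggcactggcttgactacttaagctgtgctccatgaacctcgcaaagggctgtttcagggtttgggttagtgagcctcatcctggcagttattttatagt
Mertk, chr2:128698665-128698964, plus strand: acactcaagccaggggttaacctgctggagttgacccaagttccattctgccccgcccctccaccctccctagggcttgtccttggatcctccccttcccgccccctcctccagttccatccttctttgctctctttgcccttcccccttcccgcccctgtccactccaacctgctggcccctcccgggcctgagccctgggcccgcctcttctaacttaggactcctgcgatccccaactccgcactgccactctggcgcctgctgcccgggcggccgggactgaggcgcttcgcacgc
The Mrc1 window held 3 matches, all on the opposite strand, beginning 210, 168 and 36 bases before the start, and the windows of Clec7a and Mertk held none. Of the others, Folr2 had 2 in one entry and 1 in the other, Marco had 2, Stab1 had 1, and Cd36 and Cd163 had none. Of 32851 promoters of this length, 35.4% held AGGAAG on either strand. The letters TATAAA, searched on both strands, were in 13.6% of promoters and in 1 of the 2 Clec7a entries, the one shown, as TTTATA near its 3′ end and beginning 42 bases after the start. A match of these letters is a description of the window and says nothing of binding in these cells.

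The receptors were then set beside 9 lists of genes of neighbouring functions, which hold 129 different genes, none of them a receptor of the set. Of these, 93 were tested, 0 had an adjusted p under 0.05 in edgeR and 10 (10.8%) had an unadjusted p under 0.05, where the background was 7.77%. In DESeq2 the lowest adjusted p of these genes was 0.503. The median log2 fold change was 0.15 over the 7 tested receptors and -0.01 over all tested genes. The sign of the receptor median turned to -0.04 when genes were not filtered, where Lyve1 and Cd163 entered, and the median was 0.25 with a mean above 10, where Folr2 is not tested.

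Genes of alternative activation had the highest median, 0.35 over 7 tested of 12 listed, with 3 higher and 0 lower in picrotoxin at an unadjusted p under 0.05. Of all tested genes, 3.65% were called higher at that threshold. Chil3, which encodes a chitinase-like lectin of alternatively activated macrophages, had 3.47 normalised molecules in DMSO and 8.60 in picrotoxin (log2 fold change 1.22, SE 0.41, edgeR adjusted p = 0.398). Arg1, arginase 1, had 405.8 and 513.9 (0.35, SE 0.14, edgeR adjusted p = 0.514). Pdcd1lg2, the checkpoint ligand PD-L2, had 1.48 and 4.26 (1.45, SE 0.59, edgeR adjusted p = 0.519). The other 4 were Ccl24, Socs2, Tgm2 and Il4ra, with log2 fold changes of 0.73, -0.51, 0.10 and 0.04. The number called in this list was 2 in DESeq2 (all genes 3.82%), where Arg1 was not called (Wald test, unadjusted p = 0.114). It was 1 when the filter was raised to a mean above 10 (all genes 10.6%), where Chil3 and Pdcd1lg2 are not tested. With no filter on low counts it was 5 (all genes 7.41%), of which 4 were higher and 1 lower in picrotoxin.

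Of the signalling partners of dectin-1, 8 of 9 were tested, with a median of 0.10 and 1 called at an unadjusted p under 0.05. That gene was Syk, the kinase recruited by dectin-1, at 20.0 and 27.1 normalised molecules (log2 fold change 0.45, SE 0.18, edgeR adjusted p = 0.499), while Prkcd and Vav1 had 0.19 and 0.20. Syk was not called in DESeq2 (unadjusted p = 0.0513), and with the mean log2 CPM of the matrix markers as a covariate no gene of this list was called higher and 1 was called lower. Other lectin receptors had 13 tested of 19, a median of -0.12 and 1 called, Clec4n (dectin-2), which had 35.9 molecules in DMSO and 26.2 in picrotoxin (-0.44, SE 0.17, edgeR adjusted p = 0.495) and was not called without DMSO library 5. Clec4n and Clec7a, both receptors for fungal polysaccharides, thus had estimates of opposite sign. Clec10a, at a mean of only 1.37 normalised molecules, had 1.01 (SE 0.77), and Clec4a2 had 0.18 (SE 0.15).

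Other scavenger receptors had 7 tested of 16, with a median of -0.07 and 0 called in edgeR. The 3 with the smallest p were Olr1 (-1.42, SE 0.78), Cd68 (-0.11) and Lrp1 (0.11), and Olr1 had a mean of only 1.64 normalised molecules. Genes of apoptotic cell uptake, the function that Mertk serves, had 15 tested of 20, a median near 0 and 0 called, and C1qa, Dock1 and C1qc had log2 fold changes of 0.18, -0.63 and 0.12. Receptor-shedding genes encode proteases that release Mertk and other receptors from the cell surface, or proteins that regulate such proteases. They had 4 tested of 6, a median of 0.16 and 0 called, with Adam10 at 0.21, Adam17 at 0.21 and Mmp14 at 0.12.

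Genes of folate transport and one-carbon metabolism, set beside Folr2, had 17 tested of 19, a median of 0.01 and 3 called at an unadjusted p under 0.05, all lower in picrotoxin. Of all 9580 tested genes, 394 were called lower at that threshold. Slc19a1, the reduced folate carrier, had 3.04 and 0.817 normalised molecules (log2 fold change -1.67, SE 0.67, edgeR adjusted p = 0.514). Aldh1l2 had -1.77 (SE 0.81) at a mean of only 1.26 normalised molecules, and Atic had -0.41 (SE 0.20). The count in this list moved between 0 and 4 over the other fits. It was 0 with the mean log2 CPM of the matrix markers as a covariate (all genes 5.82%) and 1 in DESeq2 (all genes 3.82%). It was also 1 without picrotoxin library 1 (all genes 7.81%), without picrotoxin library 4 (all genes 7.28%) or without DMSO libraries 3 and 5 together (all genes 5.37%). Genes of tissue-resident macrophages, which share the niche of Folr2 and Lyve1 cells, had 14 tested of 21 and a median of -0.18, and Ccl24 and Dab2 had log2 fold changes of 0.73 and 0.16.

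Genes of lipid handling, set beside Cd36, had 12 tested of 14, a median of 0.21 and 1 called. Lyn, a Src-family kinase that acts downstream of Cd36, had the lowest adjusted p of all 93 genes, 0.242 in edgeR, at 95.7 and 128.4 normalised molecules (log2 fold change 0.44, SE 0.12). Plin2, which coats lipid droplets, and Dgat1, which makes triglyceride, had 0.29 and 0.62.

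**Figure D5:**
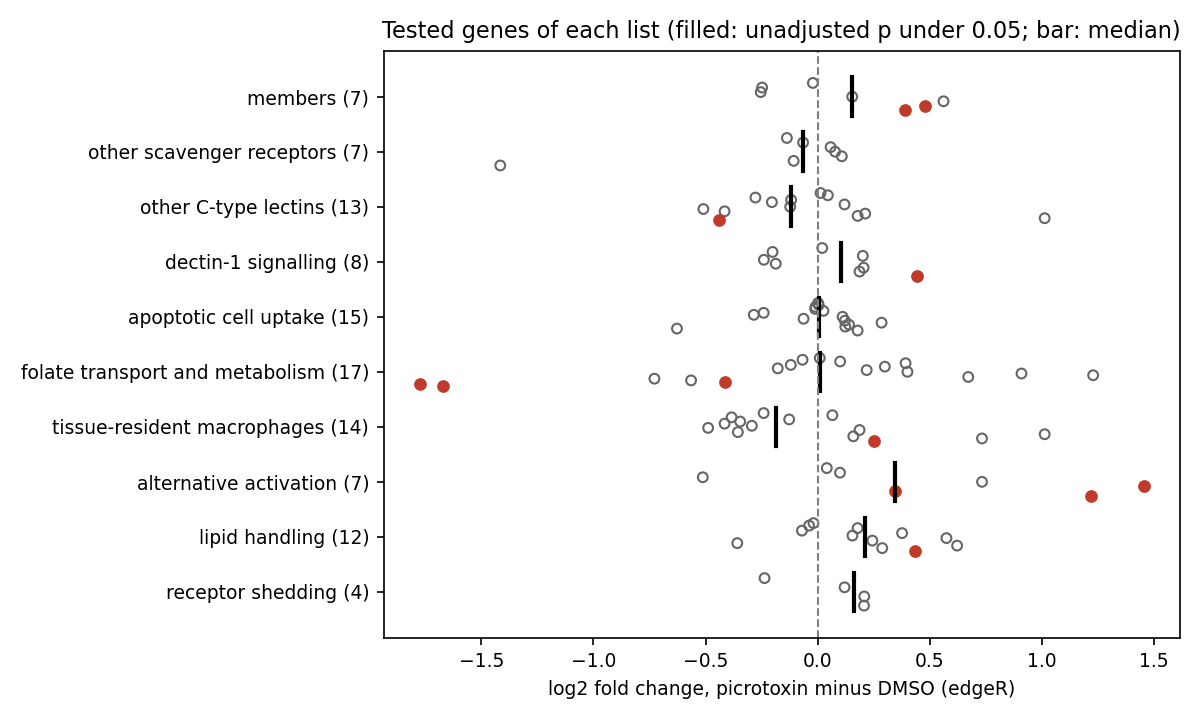
Log2 fold change in edgeR, picrotoxin minus DMSO (horizontal axis), of the tested genes of each list, with 1 point per gene, filled where the unadjusted p was under 0.05 and with a bar at the median of the list. The medians run from -0.18 for tissue-resident genes to 0.35 for genes of alternative activation, and no gene of any list had an adjusted p under 0.05.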

How the data were processed

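The deposited values are counts of molecules, whole numbers for each gene symbol, which the authors made from reads mapped to mm10 with STAR and refFlat, with molecular barcodes in place of PCR reads. Strand, reads that map to several places and barcode errors are not stated, so counts of overlapping or near-identical genes are uncertain. The members and all lists were chosen with earlier results of these data known. The methods give each library a mouse, whereas the figure text gives fewer mice than libraries, and libraries were tested as independent, so p-values measure the spread between libraries and may be too small.

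Genes with a mean normalised number of molecules above 1 (counts divided by DESeq2 size factors) were tested with the quasi-likelihood test of edgeR 4.0.16 (TMM, R 4.3.3), adjusted by Benjamini-Hochberg over 9580 genes. The SE was the log2 fold change divided by the square root of F. DESeq2 1.42.0 and limma-voom (limma 3.58.1) were alternatives, besides other scalings, filters, covariates and samples left out. Log2 CPM used a prior count of 2. All 30 pairs of libraries within groups differed by more than counting noise (chi-square per degree of freedom 1.23 to 3.15). The labels name no pairs, so same-numbered libraries were not taken as pairs in the main fit. A fit with the library number as a block was an alternative. Named genes were all 10 members, up to 3 of each list by smallest p (and any with an adjusted p under 0.05), and the 3 genes most like each member with a mean of at least 10. The other genes of the alternative activation list, and marker genes, were named after their values were seen. The result of 1 listed gene that the rule names is not reported here. Positions and lengths are from GENCODE M21 (GRCm38), where shared bases are stretches of at least 100 at 98% identity (BLAST+ 2.17.0).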

Additional observations from a re-analysis of the deposited data

Results flagged for a closer look

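Of 37 sets of 6 libraries (each receptor and each marker list in each group), 8 held a library far from the other 5 by Dixon's criterion at the 95% level. For continuous values chance flags about 1 in 20, or 1.85 of 37, a number that does not hold for counts near 0. The sums of marker molecules were not scaled to the library total. Among receptors, Msr1 was low in DMSO library 3, at 106.5 normalised molecules against 157.9 to 173.8 in the others, and Cd36 was high in picrotoxin library 6, at 24.6 against 8.05 to 13.7. Cd163 in DMSO library 6 (1.46 normalised molecules) and Lyve1 in picrotoxin library 4 (1.0033) stood out because the other 5 libraries of their group were at 0. Among marker lists, monocyte markers in picrotoxin library 4 summed to 376 molecules against 246 to 289, and fibroblast and matrix markers in DMSO library 5 to 720 against 14 to 193. As a share of the library total, the monocyte markers were 0.157% in picrotoxin library 4 and 0.102% to 0.133% in the other picrotoxin libraries, a smaller gap relative to the spread. T and NK cell markers in picrotoxin library 6 summed to 23 molecules against 0 to 2 in the others, of which 20 were Gzmb. B cell markers in picrotoxin library 3 were at 1 molecule against 2 in each of the others, a difference of a single count.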

How the results depend on the processing

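Over 167 refits of the 7 receptors, 155 kept direction and side of the adjusted threshold, 3 came to pass it, 0 ceased to and 9 reversed. Receptors with an adjusted p under 0.05 numbered 1 in libraries 3 to 6 alone (Clec7a), 1 with no filter on low counts (Mrc1, 0.46, adjusted p = 0.0435) and 1 with the replicate block (Mrc1, 0.52, adjusted p = 0.0442), and 0 to 0 when a library was left out. Same-numbered libraries correlated at -0.0164 to 0.0469 over all tested genes, and no library correlated best with its own number. Counting noise in genes of few molecules lowers such correlations, and the labels do not say which libraries share a mouse. Whether the block belongs to the design therefore cannot be judged from them. Receptors with an unadjusted p under 0.05 numbered 4 with no filter (Lyve1 lower; all genes 7.41%), 3 without DMSO libraries 3 and 5 (all genes 5.37%), and 1 to 4 when a library was left out, with 1 without picrotoxin library 4 (all genes 7.28%) and 4 without picrotoxin library 6 (all genes 6.88%). Reversals were Clec7a at -0.25 in numbers 1 and 2, Folr2 at 0.029 without DMSO library 6 (-0.40 to 0.029 over all libraries left out), and Stab1 at 0.088 with the matrix marker covariate, 0.11 without DMSO libraries 3 and 5, 0.10 in numbers 1 and 2, and above 0 without DMSO library 3, 4 or 5 or picrotoxin library 2 (-0.084 to 0.033 over all libraries left out).

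The number of all genes with an adjusted p under 0.05, 5 in edgeR, was 2 in DESeq2, 3 in limma-voom, 13 with library totals, 81 with no filter, 43 with the replicate block, 27 with numbers 1 and 2 against 3 to 6 as a term, 49 in libraries 3 to 6 alone, 0 with the matrix covariate, 1 without DMSO libraries 3 and 5, and 0 to 25 when a library was left out. At an unadjusted p under 0.05 it was 366 in DESeq2 and 396 with a mean above 10, and 611 to 825 when a library was left out. The cause was not tested. Over 23 other fits, the medians of alternative activation (0.08 to 0.46) and lipid handling (0.12 to 0.34) stayed above 0, whereas those of the receptors (-0.04 to 0.25) and of the other 7 lists changed sign in at least 1 fit. Depth limits Folr2, Mertk and Cd36, where counting noise is a large part of the spread, and keeps Lyve1, Cd163 and Marco below the filter.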
